A study of Mus musculus with 24 samples.

Results

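The data compare M2 macrophages of the epididymal fat pad between obese mice that were given the antibody bFKB1 and obese mice that were only kept warm. The comparison rests on 6 of the 24 libraries of the study. They are the 3 libraries whose titles name the antibody and the second macrophage population, and the 3 libraries titled Warm M2, and the values are for the 21063 genes listed in both deposited count tables. The bFKB1 M2 cells came from male C57BL/6J mice on a high fat diet at thermoneutral temperature, aged 18 to 20 weeks and weighing 38 to 42 g. These mice received bFKB1 by intraperitoneal injection at 10 mg/kg, and the fat was collected after 8 days. The Warm M2 cells came from male C57BL/6J mice of the same age and weight range, on a high fat diet started at 6 weeks and held at 29 to 30 °C, and Warm is the control named by the study. Each Warm library pooled sorted cells of 5 mice, whereas the number of mice behind a bFKB1 library, the number of injections and the start of the diet are not stated in the labels. No vehicle or control antibody group was analysed here. The study also holds M1 macrophages and adipocyte progenitors of the same fat pad, and mice exposed to cold. Of these, the M1 libraries of both treatments, the Cold M2 libraries and, for the level of progenitor genes, the Warm progenitor libraries are used below.

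FGF21 is a hormone that lowers body weight and improves glucose handling in obese rodents, and it acts through FGF receptors that need the co-receptor beta-klotho (Klb). bFKB1 is an FGF21-mimetic antibody, which means that it activates the receptor complex of FGFR1 and beta-klotho in place of the hormone. In obese fat, M2 is the usual name for resident-type macrophages with high mannose receptor (Mrc1), and M1 is the name for macrophages with the integrin CD11c (Itgax), many of which carry genes of lipid uptake and lysosomal breakdown.

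The bFKB1 M2 libraries held 21303538 to 23386469 counts and the Warm M2 libraries 17660787 to 20455209. All levels below are counts scaled to the total of the library (CPM) and are compared within a gene only. The bFKB1 and Warm libraries were deposited in separate tables. A poly(A) selection and a library kit are named for the Warm libraries, and only an RNA extraction kit is named for the bFKB1 libraries. Antibody, table and library preparation therefore cannot be told apart in any value that sets bFKB1 against Warm.

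The M2 label was checked against marker genes. Mrc1 lay at 4814 to 5549 CPM in the bFKB1 M2 libraries and at 5622 to 5843 CPM in the Warm M2 libraries, against 1159 to 1293 CPM in bFKB1 M1 and 1678 to 1717 CPM in Warm M1. Itgax lay at 88.7 to 186.8 CPM in bFKB1 M2 and 75.2 to 124.8 CPM in Warm M2, well under the 872 to 1040 CPM of bFKB1 M1 and the 728 to 828 CPM of Warm M1. The scavenger receptor Cd163 and the hyaluronan receptor Lyve1, both markers of resident macrophages, were also several times higher in the M2 than in the M1 libraries of either treatment. The T cell gene Cd3e and the neutrophil gene S100a8 stayed under 1 CPM in all 6 libraries. Progenitor and endothelial markers were well above that level. Col1a1 lay at 154.0 to 244.5 CPM in bFKB1 M2 and 302.2 to 597.9 CPM in Warm M2, and Dcn at 133.6 to 163.6 and 184.6 to 245.2 CPM. The endothelial gene Pecam1 lay at 24.3 to 32.6 CPM in bFKB1 M2 and 12.7 to 18.7 CPM in Warm M2, and Cdh5 at 27.4 to 33.7 and 17.7 to 24.2 CPM. Cd9 and Trem2, also set as M1 markers, were lower in the M2 than in the M1 libraries of the same treatment. Trem2 in bFKB1 M2 (345 to 409 CPM) still reached the range of Warm M1 (257 to 363 CPM). Cd9 lay at 170 to 185 CPM in bFKB1 M2 and 231 to 274 CPM in Warm M1. The M2 label thus held against M1 within each treatment by the macrophage markers. The labels do not describe the gate of the sort, and Mrc1 or Itgax may have been part of it.

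The receptor of the antibody was read first. Fgfr1 had 583.8, 623.7 and 623.4 CPM in the bFKB1 M2 libraries and 858.9, 656.4 and 688.2 CPM in the Warm M2 libraries. All 3 bFKB1 values were lower, but the difference did not pass the test (log2 fold change -0.28, SE 0.14, adjusted p = 0.229 in the quasi-likelihood test of edgeR). The co-receptor gene Klb had 0.329, 0.128 and 0.419 CPM with bFKB1 and 0.293, 0.207 and 0.0566 CPM in Warm, too few counts to be tested. Klb was likewise low in the M1 libraries, with means of 0.0868 CPM with bFKB1 and 0.154 CPM in Warm. Among 15 tested genes of FGF receptor signalling and MAP kinase feedback, 1 rose and 14 were not called. Over all tested genes 5.25% were called higher and 3.01% lower, so 1 call is near that share. The one that rose was Dusp4, a phosphatase that is induced by and shuts down MAP kinases, with 11.7, 7.01 and 7.55 CPM in bFKB1 and 2.84, 4.71 and 3.11 CPM in Warm. Its call (log2 fold change 1.29, adjusted p = 0.0208, edgeR) was lost without bFKB1 library 1, without Warm library 1 and without Warm library 3. The feedback genes Dusp6 (143.4 CPM with bFKB1 and 153.5 CPM in Warm), Spred1 (154.8 and 151.4 CPM) and Etv5 (25.7 and 23.1 CPM) had group means close to each other and were not called.

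Across all genes, 1052 of 12734 tested genes differed between bFKB1 and Warm M2 cells at an adjusted p under 0.05 (8.26%), of which 669 were higher with bFKB1 (5.25%) and 383 lower (3.01%). The shares of 5.25% and 3.01% are the background for every count of list members called. A change of at least 1 on the log2 scale was reached by 124 of the higher and 58 of the lower genes. The median log2 fold change over all tested genes was 0.00083, a value that the scaling sets close to 0. The number of calls depended on every library. It was 429, 553 and 533 without bFKB1 libraries 1, 2 and 3, and 394, 418 and 518 without Warm libraries 1, 2 and 3. Of the 1052 genes, 277 (209 higher, 68 lower) were called in all 6 of these fits, and all 1052 kept their direction in them. The fit also held the M1 libraries of both treatments, and a fit of the 6 M2 libraries alone called 1854 genes. For the Warm libraries the replicates are pools of different mice. For the bFKB1 libraries nothing says that they came from separate animals, so that their spread may be partly technical.

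**Figure D1:**
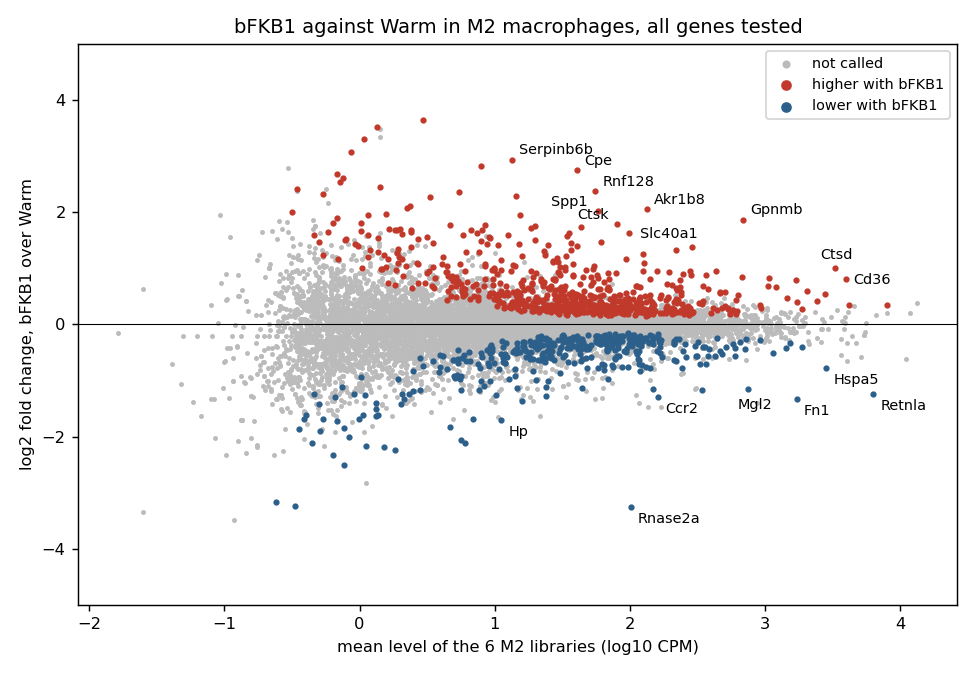
Each point is 1 of the 12734 tested genes, with the mean level of the 6 M2 libraries (log10 CPM) on the x axis and the log2 fold change of bFKB1 over Warm on the y axis. The 669 genes called higher (red) and 383 called lower (blue) sit on both sides of 0, and Gpnmb, Ctsd and Cd36 on the upper side and Fn1, Retnla and Hspa5 on the lower side are among the called genes of high level.

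The genes of the lipid-associated macrophage were the list with the most calls. Such macrophages gather around dying adipocytes in obese fat and take up and break down lipid. Of the 18 tested members, 14 rose with bFKB1 and none fell, with a median log2 fold change of 0.83 beside 0.00083 over all genes. Each of the 14 was higher in all 3 bFKB1 libraries than in any Warm library. Over all tested genes, 35.8% had groups that did not overlap, 19.7% with bFKB1 higher and 16.1% with bFKB1 lower. In bulk libraries fewer cells of a type and less RNA per cell cannot be told apart. The list's count was 12 to 14 when 1 library was left out and 14 to 17 under the other settings tried. Gpnmb, a glycoprotein of lysosome-rich macrophages (chr6:49036546-49070929, GRCm38), had 956, 975 and 1343 CPM with bFKB1 and 329, 254 and 306 CPM in Warm. The groups were far apart, and the log2 fold change was 1.87 (SE 0.19, adjusted p = 0.000432, edgeR). Spp1, which codes for the secreted adhesion protein osteopontin (chr5:104435118-104441050), had 100.1, 74.8 and 105 CPM with bFKB1 and 17.6, 27.8 and 23.2 CPM in Warm, a log2 fold change of 2.02 (SE 0.18, adjusted p = 0.000239, edgeR).

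The members that act in lipid sensing, uptake and storage moved in the same direction. The lipid receptor gene Trem2 had 409, 349 and 345 CPM with bFKB1 and 204.5, 203 and 187.8 CPM in Warm, and the groups did not overlap (log2 fold change 0.88, SE 0.14, adjusted p = 0.00597, edgeR). Cd36, which codes for a fatty acid and oxidized lipoprotein receptor, had 5358, 4866 and 5071 CPM with bFKB1 and 2788, 2723 and 3110 CPM in Warm. Its log2 fold change was 0.81 (SE 0.09, adjusted p = 0.000832, edgeR). Lipoprotein lipase, Lpl, which frees fatty acids from circulating triglyceride, rose by 0.79 on the log2 scale, the fatty acid binding protein gene Fabp5 by 1.12 and the lipid droplet coat gene Plin2 by 0.59. Further members work in the lysosome. Lipa, the acid lipase, rose by 0.85 and Atp6v0d2, a pump subunit found in macrophages and osteoclasts, by 1.09. All of these calls held without any 1 library. The tetraspanin gene Cd9, used as a marker of these cells, had 184.7, 170.1 and 176.2 CPM with bFKB1 and 70.6, 81.8 and 68.2 CPM in Warm. The 4 members not called were Apoe (15320 CPM with bFKB1 and 11630 CPM in Warm, adjusted p = 0.0871, edgeR), Cd63, Fabp4 and Itgax. Itgax was the one member of the list whose groups overlapped, with 88.7, 130.7 and 186.8 CPM with bFKB1 and 124.8, 75.2 and 116.2 CPM in Warm.

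**Figure D2:**
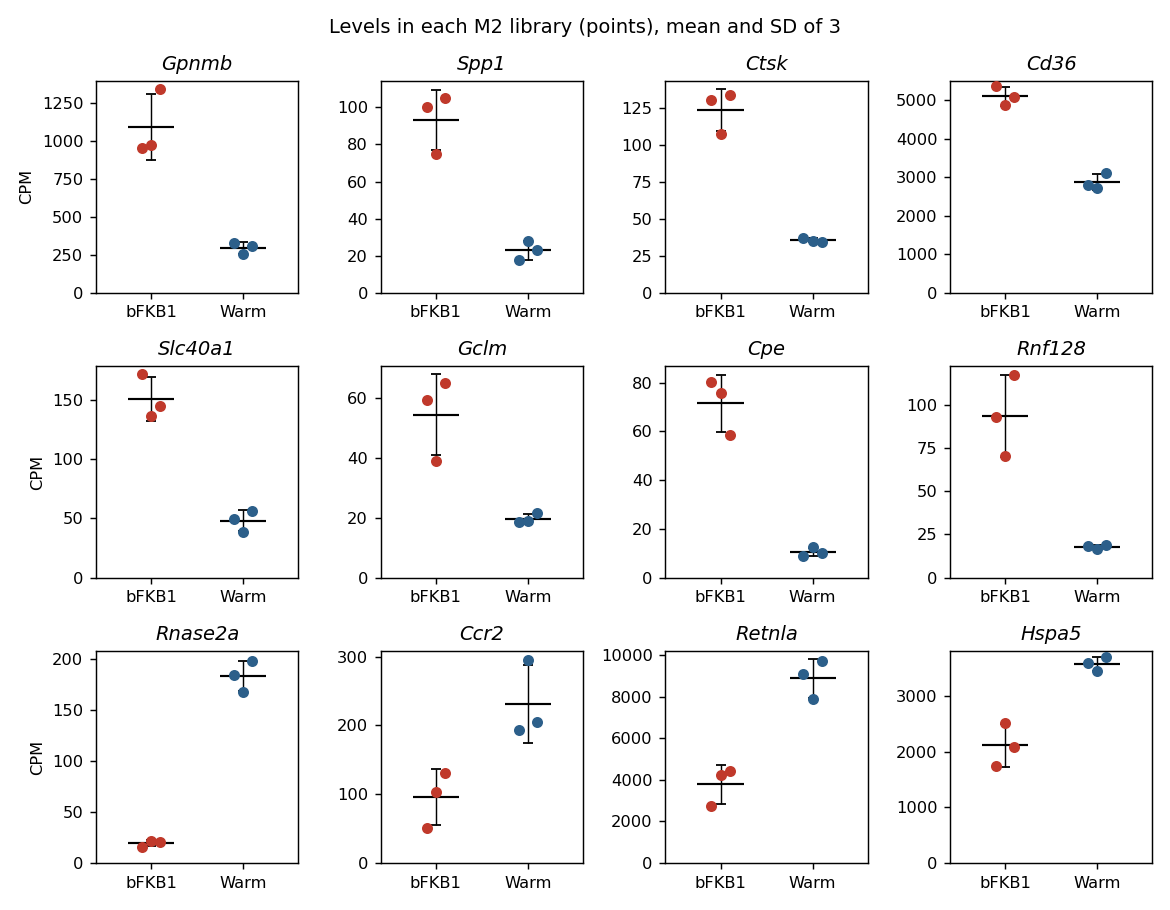
CPM in each M2 library (points) with the mean (line) and SD of 3 libraries (bars) for 12 genes, bFKB1 in red and Warm in blue, each y axis starting at 0. In the first 8 genes all bFKB1 libraries lie above all Warm libraries, and in Rnase2a, Ccr2, Retnla and Hspa5 all lie below them.

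Proteases and lysosome genes are described next. Ctsk, cathepsin K, a protease that cuts collagen (chr3:95499256-95509362), had 130.7, 107.5 and 133.7 CPM with bFKB1 and 37.0, 35.4 and 34.6 CPM in Warm. That is a log2 fold change of 1.78 (SE 0.18, adjusted p = 0.000432, edgeR). Mmp12, the macrophage elastase, had 309.9, 303 and 635 CPM with bFKB1 and 194.5, 115.9 and 162.9 CPM in Warm. Library 3 stood above the other bFKB1 libraries, and the call (log2 fold change 1.38, adjusted p = 0.0131, edgeR) was lost without Warm library 2. Of 15 tested matrix metalloproteinases and their inhibitors, 3 rose (Mmp9, Mmp12 and Mmp27) and 1 fell. Over all tested genes 5.25% rose and 3.01% fell, so 1 fallen member is near that share. The risen count was 1 without any 1 bFKB1 library or without Warm library 1, and 0 without Warm library 2. The one that fell was the collagenase Mmp13, with 11.9, 13.7 and 15.1 CPM with bFKB1 and 18.4, 33.6 and 28.3 CPM in Warm (log2 fold change -0.99, adjusted p = 0.0216, edgeR), a call lost without bFKB1 libraries 1 or 2 and without Warm libraries 2 or 3. Of 28 tested lysosome genes, 8 rose, none fell and 20 were not called, with a median log2 fold change of 0.19. Higher in all 3 bFKB1 libraries were 20 members, beside 19.7% of all tested genes. Within this list the largest change was in Ctsd, cathepsin D, the main aspartic protease of the organelle, with 4958, 3926 and 4389 CPM with bFKB1 and 2157, 2173 and 2237 CPM in Warm (log2 fold change 1.00, SE 0.10, adjusted p = 0.000395, edgeR). The other risen members were Lipa, Ctsl, Glb1, Gusb, the proton pump subunits Atp6v1a and Atp6v1b2, and Tfeb. Tfeb codes for the transcription factor that drives lysosomal genes, and its log2 fold change was 0.35 (adjusted p = 0.0160, edgeR), a call lost without bFKB1 library 2 and without Warm libraries 1 or 2. The lysosomal count fell to 4 without bFKB1 library 1, bFKB1 library 3 or Warm library 2, to 3 without Warm library 1 and to 5 without Warm library 3.

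The promoters of the lysosome genes were searched for the 8 letters TCACGTGA, the core of the element that TFEB binds, which reads the same on both strands and contains the general E-box CACGTG. The search was chosen after the values were seen and used RefSeq windows (GRCm38.p6) of 250 bases before to 50 after each start. The letters were present in 320 of 32851 windows of the mouse genome (0.974%). Counted by gene, as the members are, the share was 1.12%. The letters were in 2 of the 7 risen members that have a window, and in 4 of 13 members that were not called. A match is a description of the letters and not a binding site. Shown with the element in capitals are Ctsd (chr7:142387897-142387948, minus strand), Atp6v1a (chr16:44139362-44139413, minus strand) and, as a member that was not called, Ctsa (chr2:164833738-164833772, plus strand).
Ctsd: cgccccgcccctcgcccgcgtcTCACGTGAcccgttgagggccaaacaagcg
Atp6v1a: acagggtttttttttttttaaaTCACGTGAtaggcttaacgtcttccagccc
Ctsa: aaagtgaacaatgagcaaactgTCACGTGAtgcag
Atp6v1a had 420.4, 359 and 389 CPM with bFKB1 and 284, 305 and 307 CPM in Warm, and Ctsa had means of 1414 CPM with bFKB1 and 1208 CPM in Warm (adjusted p = 0.0588, edgeR), with all 3 bFKB1 libraries higher.

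Antioxidant genes formed the list with the next highest share of calls. They make and recycle glutathione and thioredoxin or remove peroxides, and many are targets of the transcription factor NRF2. Of 18 tested members, 13 rose and none fell, with a median log2 fold change of 0.52. The count was 8 without bFKB1 library 3 and 8 without Warm library 1. Gclm, the modifier subunit of the enzyme that limits glutathione synthesis (chr3:122245557-122270732), had 59.3, 39.0 and 64.9 CPM with bFKB1 and 18.5, 18.9 and 21.6 CPM in Warm. The log2 fold change was 1.46 (SE 0.15, adjusted p = 0.000432, edgeR). Gsr, glutathione reductase, had 41.3, 33.1 and 46.4 CPM with bFKB1 and 18.5, 16.9 and 16.9 CPM in Warm. Prdx1, a peroxidase that works with thioredoxin, had 416, 305 and 391.5 CPM with bFKB1 and 189.6, 179.2 and 199.3 CPM in Warm. In all 3 genes bFKB1 library 2 was the lowest of its group and still lay above every Warm library. Catalase, Cat, rose by 0.90 on the log2 scale (adjusted p = 0.000156, edgeR), Txn1 by 0.57, Srxn1 by 0.69 and Sod1 by 0.35. Nqo1, a quinone reductase often read as a marker of NRF2 activity, was low in level, at 2.86, 2.35 and 3.17 CPM with bFKB1 and 0.978, 0.673 and 0.906 CPM in Warm (log2 fold change 1.69, adjusted p = 0.00376, edgeR). Nfe2l2, which codes for NRF2 itself, had means of 442 CPM with bFKB1 and 418.7 CPM in Warm and was not called, and neither was mitochondrial Sod2 (89.9 and 96.4 CPM). Akr1b8, an aldose reductase family member that detoxifies aldehydes, was outside the list and had 235.6, 153.6 and 258.4 CPM with bFKB1 and 48.7, 55.1 and 50.9 CPM in Warm (log2 fold change 2.05, SE 0.18, adjusted p = 0.000221, edgeR).

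The core letters of the antioxidant response element, TGACNNNGC, were searched on both strands in the same windows. They overlap the AP-1 site TGACTCA when the free letters allow it. They are common, being in 4071 of 32851 windows (12.4%) and, counted by gene as the members are, in 14.0% of genes. They were in 6 of the 10 risen antioxidant members with a window and in 2 of 5 members not called. The stretches of 3 risen members are shown with the element in capitals: Gclm (chr3:122245401-122245453, plus strand), Prdx1 (chr4:116685444-116685496, plus strand) and Txnrd1, thioredoxin reductase (chr10:82859092-82859144, plus strand). In all 3 the element lies on the opposite strand, so that the letters printed are its reverse complement.
Gclm: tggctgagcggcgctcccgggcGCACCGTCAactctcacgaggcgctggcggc
Prdx1: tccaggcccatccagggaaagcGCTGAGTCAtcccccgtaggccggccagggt
Txnrd1: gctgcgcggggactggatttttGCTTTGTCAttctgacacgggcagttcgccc
The Prdx1 element is one that overlaps an AP-1 site. Txnrd1 had 220.8, 193.2 and 260.9 CPM with bFKB1 and 148.2, 165.5 and 170 CPM in Warm (log2 fold change 0.47, adjusted p = 0.0239, edgeR), and its call was lost without bFKB1 library 1 or 3 and without Warm library 1 or 2.

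**Figure D3:**
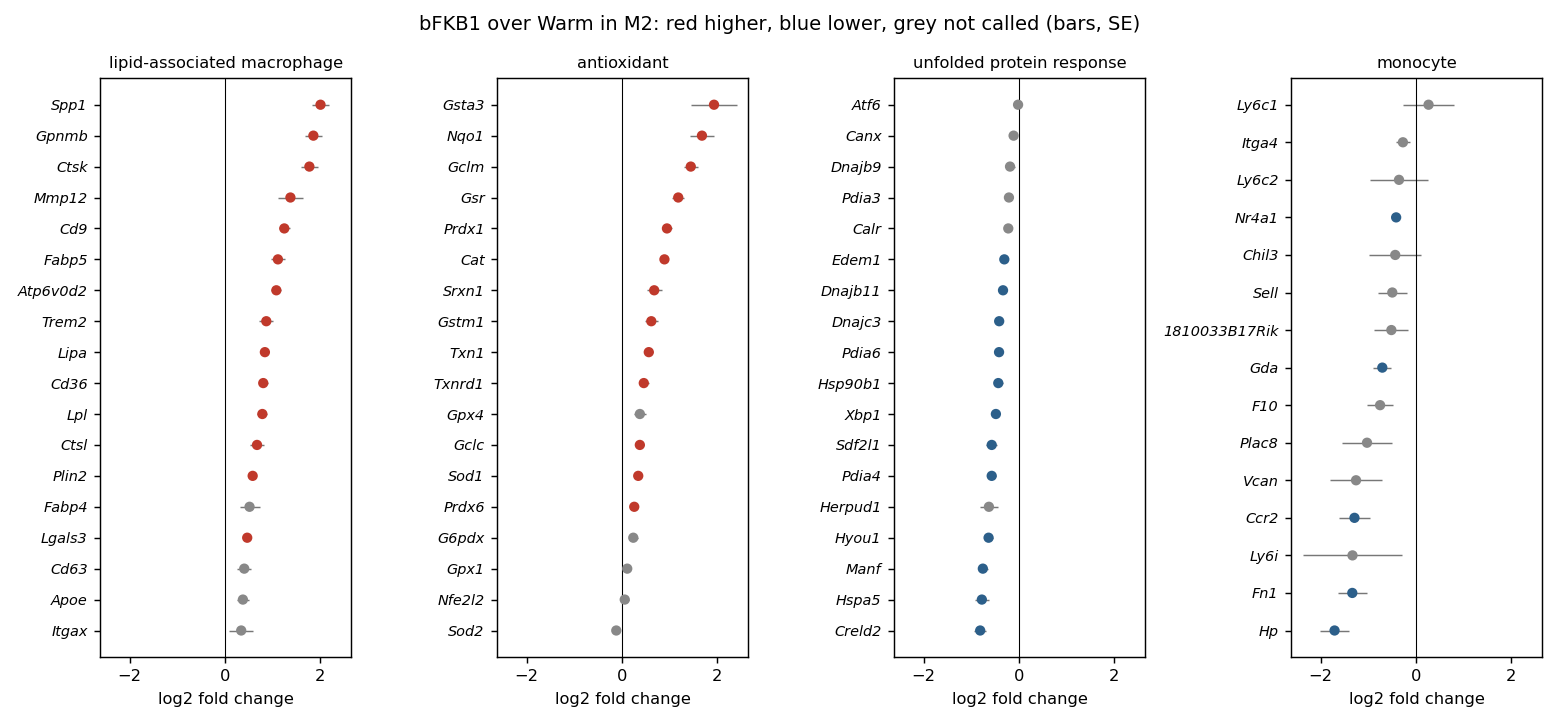
Log2 fold change of bFKB1 over Warm (x axis) with its standard error (bars) for every tested member of 4 lists, red for called higher, blue for called lower and grey for not called. The points of the lipid-associated list all lie at or above 0.35, 17 of the 18 antioxidant points lie above 0, and all 18 points of the unfolded protein response lie below 0.

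Genes of iron and heme handling were also among the risen. Macrophages store iron in ferritin and return it to the blood through ferroportin, Slc40a1. Of 18 tested members 7 rose and none fell, although the list's median was only 0.06. Slc40a1 (chr1:45908068-45926523) had 171.6, 136.4 and 144.4 CPM with bFKB1 and 49.8, 38.4 and 56.3 CPM in Warm, with a wide gap between the groups (log2 fold change 1.63, SE 0.20, adjusted p = 0.00134, edgeR). The ferritin heavy chain gene Fth1 had 3459, 3135 and 3436 CPM with bFKB1 and 2289, 2157 and 2350 CPM in Warm (log2 fold change 0.55, SE 0.06, adjusted p = 0.000882, edgeR). The phagosomal metal transporter gene Slc11a1 rose by 0.56, the heme transporter gene Slc48a1 by 0.64, Ftl1 by 0.39 and the biliverdin reductase genes Blvra and Blvrb by 0.22 and 0.44. The heme-degrading enzyme Hmox1 was not called, with 1131 CPM with bFKB1 and 1069 CPM in Warm, and neither was the transferrin receptor gene Tfrc (171 and 212.4 CPM). The count was 4 without bFKB1 library 1, Warm library 1 or Warm library 2.

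Scavenging and fuel use changed in part. Of 20 tested genes of efferocytosis and scavenging, 7 rose and none fell (median 0.37), among them Cd36, the apoptotic cell receptor parts Itgav and Itgb5, Lrp1, Scarb2, Stab2 and Marco. Itgb5 had 291, 302 and 303 CPM with bFKB1 and 150.4, 197 and 165.5 CPM in Warm. Marco, a scavenger receptor for bacteria and particles, had 18.4, 9.75 and 11.7 CPM with bFKB1 and 4.40, 3.00 and 4.02 CPM in Warm, and its call held without any 1 library. The efferocytosis receptors Mertk (227 and 208 CPM) and Axl (461 and 348.8 CPM) were not called. The count was 4 without Warm library 1. Of 20 fatty acid oxidation genes, 8 rose by small amounts and none fell (median 0.18). Cpt1a, which carries fatty acids to the mitochondrial import step, had 396, 392.3 and 409.8 CPM with bFKB1 and 312, 300.3 and 276 CPM in Warm (log2 fold change 0.42, SE 0.07, adjusted p = 0.00784, edgeR). Pdk4, which keeps pyruvate out of the mitochondrion, had 34.9, 44.6 and 43.0 CPM with bFKB1 and 25.4, 19.5 and 14.5 CPM in Warm (log2 fold change 1.03, adjusted p = 0.0128, edgeR), a call lost without Warm library 2. The oxidation count was 4 without bFKB1 library 1, 5 without bFKB1 library 2, bFKB1 library 3 or Warm library 3, and 3 without Warm library 2. None of 25 respiratory chain genes was called. In glycolysis and hypoxia genes, 6 of 23 rose and 1 fell. Aldoa, an aldolase, had 458, 431.5 and 509 CPM with bFKB1 and 315, 289 and 289 CPM in Warm, whereas hexokinase 2, Hk2, fell to 22.3, 19.3 and 23.3 CPM with bFKB1, against 34.5, 44.8 and 37.6 CPM in Warm. The 6 risen glycolysis genes became 3 without bFKB1 library 3, Warm library 1 or Warm library 3.

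Several of the largest rises were in genes of no list. Cpe, carboxypeptidase E, which trims peptide hormones (chr8:64592542-64693054), had 80.3, 75.6 and 58.4 CPM with bFKB1 and 9.09, 12.6 and 9.97 CPM in Warm. No bFKB1 library came near the Warm range (log2 fold change 2.75, SE 0.31, adjusted p = 0.000772, edgeR). Rnf128, a membrane ubiquitin ligase known from T cell anergy, had 93.1, 70.2 and 117.1 CPM with bFKB1 and 18.1, 16.5 and 18.9 CPM in Warm (log2 fold change 2.37, SE 0.18, adjusted p = 0.000158, edgeR). Fat3, a large cadherin, had 27.3, 25.01 and 19.1 CPM with bFKB1 and 3.86, 6.16 and 4.42 CPM in Warm. Syngr1, a vesicle membrane protein, had 31.0, 22.3 and 20.1 CPM with bFKB1 and 6.94, 6.21 and 5.49 CPM in Warm. The serotonin receptor gene Htr2b and Pgm5, a phosphoglucomutase relative without known enzyme activity, had lower levels and rose by 2.26 and 2.82 on the log2 scale. The serine protease inhibitor genes Serpinb6b (29.5, 20.3 and 21.5 CPM with bFKB1, and 3.18, 3.37 and 2.66 CPM in Warm) and Serpinb9b (3.85, 2.82 and 9.87 CPM, and 0.636, 0.466 and 0.170 CPM) belong to a family of near-identical neighbours. The counting program is not stated in the labels, so reads may be split or shared among those copies and the 2 values are uncertain.

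On the lower side, genes of the unfolded protein response were the list with the highest share of calls. This response raises chaperones and folding enzymes of the endoplasmic reticulum when secretory load is high. Of 18 tested members, 12 fell with bFKB1 and none rose, with a median log2 fold change of -0.42, and 16 were lower in all 3 bFKB1 libraries than in any Warm library, as were 16.1% of all tested genes. The summed level of the list was 7522 to 8767 CPM in the bFKB1 M2 libraries and 11090 to 11240 CPM in the Warm M2 libraries. Its count was 8 to 12 when 1 library was left out and 12 to 15 under the other settings tried. The 5 fallen members whose promoters hold the endoplasmic reticulum stress element are shown first. That element, CCAAT and CCACG with 9 free bases between them, searched on both strands, is the site described for ATF6 with NF-Y. The element was found in 39 of 32851 windows (0.119%) and, counted by gene as the members are, in 0.137% of genes. It was in 5 of the 10 fallen members that have a window and in 2 of 5 members that were not called. The search was chosen after the values were seen, and it says nothing of which factor was active. The stretches, from RefSeq (GRCm38.p6), are 63 bases long with the element in capitals. They lie at chr2:34772003-34772065 for Hspa5 (plus strand), chr15:88819498-88819560 for Creld2 (plus), chr10:86705511-86705573 for Hsp90b1 (minus), chr12:17266469-17266531 for Pdia6 (plus), chr14:118937805-118937867 for Dnajc3 (plus) and chr11:50325778-50325840 for Canx (minus), which is a member that was not called.
Hspa5: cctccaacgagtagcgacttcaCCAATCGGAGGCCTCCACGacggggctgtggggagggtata
Creld2: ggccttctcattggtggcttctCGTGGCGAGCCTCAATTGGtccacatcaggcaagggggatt
Hsp90b1: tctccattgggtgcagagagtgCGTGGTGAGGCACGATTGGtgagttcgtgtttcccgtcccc
Pdia6: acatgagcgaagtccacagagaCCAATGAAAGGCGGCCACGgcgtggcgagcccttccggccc
Dnajc3: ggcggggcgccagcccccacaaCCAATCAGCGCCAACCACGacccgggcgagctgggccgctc
Canx: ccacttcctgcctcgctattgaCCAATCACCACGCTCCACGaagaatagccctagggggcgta
In Creld2 and Hsp90b1 the capitals give the element read on the other strand, and Hsp90b1 has a further copy upstream that is not printed.

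Hspa5, the chaperone BiP, had 1737, 2508 and 2088 CPM with bFKB1 and 3588, 3453 and 3701 CPM in Warm. The highest bFKB1 library was well below the lowest Warm library (log2 fold change -0.77, SE 0.15, adjusted p = 0.0133, edgeR). Creld2, a disulfide isomerase induced by this stress, had 45.5, 53.7 and 42.2 CPM with bFKB1 and 91.9, 82.7 and 71.1 CPM in Warm (log2 fold change -0.81, SE 0.13, adjusted p = 0.00465, edgeR). Hsp90b1, the chaperone GRP94, had 1155, 1288 and 1268 CPM with bFKB1 and 1632, 1695 and 1622 CPM in Warm, Pdia6 had 300.3, 310.1 and 318 CPM with bFKB1 and 424, 424 and 375.5 CPM in Warm, and Dnajc3 had 139.5, 151.6 and 143.8 CPM with bFKB1 and 196.5, 189.2 and 186.6 CPM in Warm. The groups did not overlap in any of these 5 genes. The calls of Hsp90b1 and Dnajc3 were lost without bFKB1 library 1 and without Warm library 1, and that of Hsp90b1 also without Warm libraries 2 or 3. The transcription factor gene Xbp1 fell to 191.1, 223 and 205.3 CPM with bFKB1, against 293, 279.5 and 283.5 CPM in Warm (log2 fold change -0.48, SE 0.07, adjusted p = 0.00427, edgeR). Manf and Hyou1, secreted and chaperone products of the same response, fell by 0.75 and 0.63 on the log2 scale. Canx, calnexin, had means of 612 CPM with bFKB1 and 652 CPM in Warm and was not called (adjusted p = 0.273, edgeR), and neither was Atf6 (105.7 and 105.6 CPM). In the amino acid response that runs through ATF4, 3 of 19 members fell and none rose, beside 3.01% of all tested genes called lower. Only 1 member fell without bFKB1 library 1 or Warm library 2. Atf4 (359 and 399 CPM) and Ddit3 (20.7 and 24.7 CPM) were not called.

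**Figure D4:**
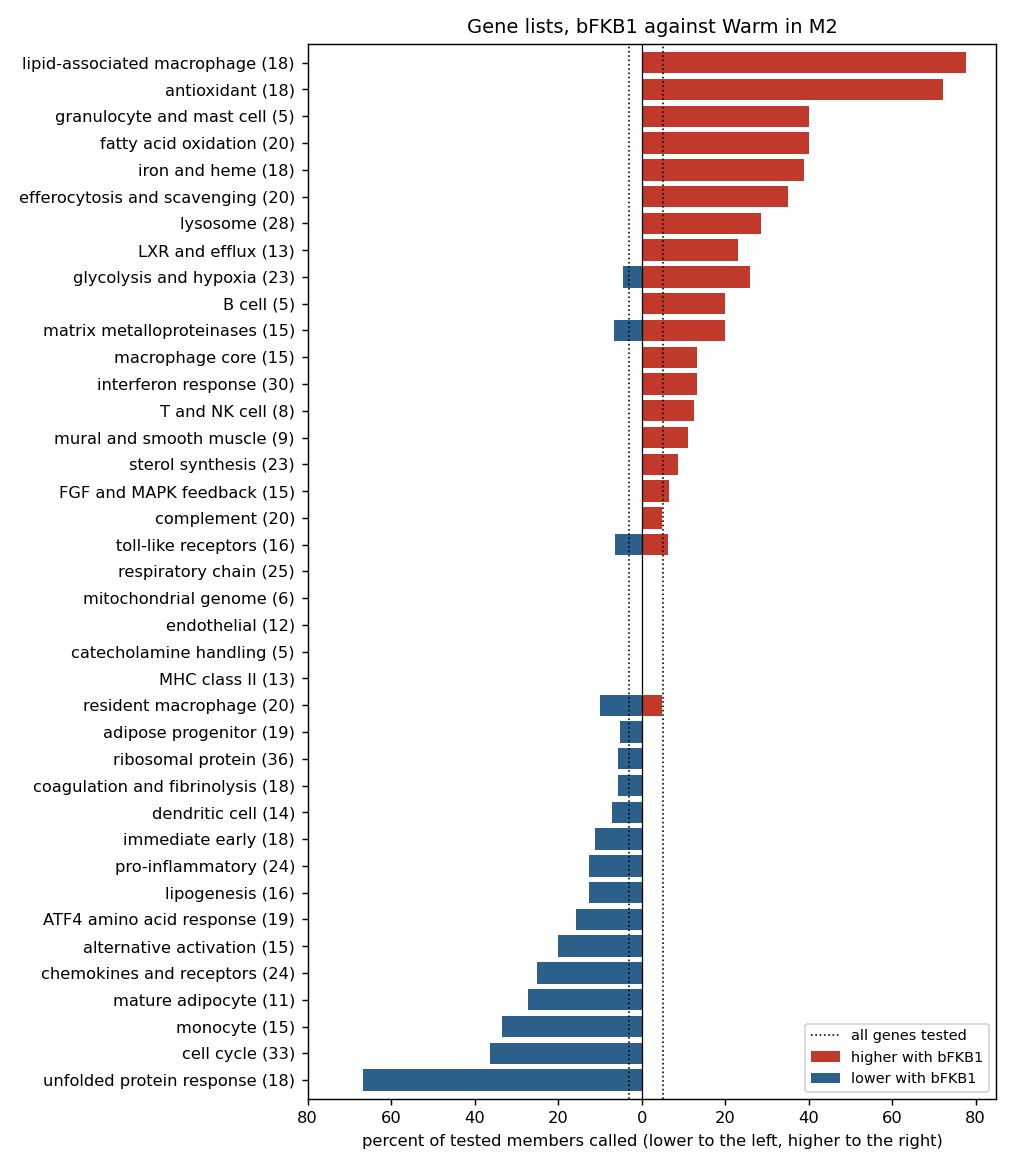
Percent of the tested members of each gene list (number tested in brackets) that were called lower (left, blue) or higher (right, red) in bFKB1 M2 against Warm M2. Dotted lines mark the percent over all tested genes, 3.01% lower and 5.25% higher, and the lists with at least 5 tested members are drawn.

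Monocyte and recruitment genes were lower in part. Of 15 tested monocyte genes, 5 fell and none rose (median -0.70), namely Ccr2, Fn1, Hp, Gda and Nr4a1. Ccr2, the receptor by which monocytes enter inflamed tissue (chr9:124101950-124113557), had 51.0, 103.2 and 131.4 CPM with bFKB1 and 192.5, 295.4 and 205.4 CPM in Warm (log2 fold change -1.29, SE 0.32, adjusted p = 0.0349, edgeR). Fn1, fibronectin, had 676, 982 and 1291 CPM with bFKB1 and 2493, 2893 and 1999 CPM in Warm (log2 fold change -1.33, SE 0.30, adjusted p = 0.0237, edgeR). In both genes bFKB1 library 1 was the lowest of all. The Ccr2 call held only when bFKB1 library 3 was left out, and the Fn1 call was lost without bFKB1 libraries 1 or 2 and without Warm libraries 1 or 2. Hp, haptoglobin, which binds free hemoglobin, had 4.60, 5.90 and 5.40 CPM with bFKB1 and 19.1, 17.1 and 15.3 CPM in Warm, and its call (log2 fold change -1.71, adjusted p = 0.00893, edgeR) held without any 1 library. Classical monocyte genes were near the floor in both groups, with Ly6c2 at means of 0.314 CPM with bFKB1 and 0.403 CPM in Warm. The list's count was 1 without bFKB1 library 1, Warm library 1 or Warm library 2, 2 without bFKB1 library 2 and 3 without Warm library 3. Fn1 and Hp are also progenitor genes, with means of 12360 and 223.8 CPM in the Warm progenitor libraries of the study. Summed over 19 genes of adipose progenitors, such as collagens and Pdgfra, the level was 2040 to 2694 CPM in the bFKB1 M2 libraries and 3388 to 5258 CPM in the Warm M2 libraries, against 165900 to 173000 CPM in the Warm progenitors. The progenitor level was thus lower in every bFKB1 library, although only Dpp4 of the 19 genes was called. The Dpp4 call was lost without any 1 library other than bFKB1 library 2, with limma-voom and with the replicate block, whereas a fit of the 6 M2 libraries alone called 14 of the 19 lower. The part of progenitor RNA in the lower genes was not tested.

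Some chemokine genes were lower. Of 24 tested chemokine and receptor genes, 6 fell and none rose (median -0.40). Ccl8 had 264, 200.4 and 167.4 CPM with bFKB1 and 443, 439 and 530.4 CPM in Warm (log2 fold change -1.18, SE 0.18, adjusted p = 0.00364, edgeR). Ccl4 had 179, 186.8 and 152 CPM with bFKB1 and 225, 306 and 279 CPM in Warm (log2 fold change -0.66, adjusted p = 0.00743, edgeR), and the calls of both genes held without any 1 library. Ccl2, the main ligand of Ccr2, had 1120.0, 939 and 791 CPM with bFKB1 and 1272, 1264 and 1494 CPM in Warm (log2 fold change -0.52, adjusted p = 0.0421, edgeR). Ccl7, another ligand of Ccr2, was not called (log2 fold change -0.63, adjusted p = 0.106, edgeR). Ccl2 and Ccl12 kept their calls only without bFKB1 library 1, and Ccr1 lost its call whichever library was left out. The chemokine count was 2 without bFKB1 library 2 or any 1 Warm library, and 3 without bFKB1 library 3. Of 24 pro-inflammatory genes 3 fell, Ccl2, Ccl4 and Il6, beside 3.01% of all tested genes. Without Warm library 1 the pro-inflammatory count was 1. Il6 had 21.4, 31.0 and 31.0 CPM with bFKB1 and 71.3, 55.7 and 54.8 CPM in Warm (log2 fold change -1.13, adjusted p = 0.0208, edgeR), a call lost without bFKB1 library 1 and without Warm library 1. Its mean in the Warm progenitor libraries was 562.7 CPM. Tnf (295 and 345 CPM) and Il1b (354 and 411 CPM) overlapped between the groups and were not called.

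Genes used to define alternative activation, the response of macrophages to interleukin 4, did not rise. Of 15 tested members 3 fell, beside 3.01% of all tested genes, namely Rnase2a, Il4ra and Retnla. Rnase2a, an eosinophil-type ribonuclease (chr14:51255262-51256112), had 16.1, 21.6 and 20.3 CPM with bFKB1 and 184.4, 167.9 and 197.7 CPM in Warm. This was the largest fall among the 24 genes named by size (log2 fold change -3.26, SE 0.21, adjusted p = 0.000109, edgeR). The gene has near-identical relatives, of which Ear2 had means of 10.6 CPM with bFKB1 and 32.7 CPM in Warm (adjusted p = 0.0565, edgeR), and how reads were shared among them is not stated in the labels. Il4ra, the receptor chain for interleukin 4, had 348, 340.3 and 342 CPM with bFKB1 and 526.5, 516 and 475 CPM in Warm (log2 fold change -0.57, SE 0.06, adjusted p = 0.000673, edgeR). Retnla, the secreted protein RELM-alpha, had 2714, 4252 and 4406 CPM with bFKB1 and 9110.0, 7862 and 9695 CPM in Warm. Its groups were far apart, yet its call (log2 fold change -1.24, SE 0.34, adjusted p = 0.0481, edgeR) was lost whichever library was left out, with adjusted p-values up to 0.161. Arg1 (4.77 and 7.00 CPM), Stat6 (331 and 332 CPM) and Pparg (38.5 and 36.9 CPM) were not called.

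Resident macrophage genes moved in both directions. Of 20 tested members, 1 rose and 2 fell, beside 5.25% of all tested genes called higher and 3.01% called lower. In every bFKB1 library 6 members were higher and 9 lower, beside 19.7% and 16.1% of all tested genes. A fit of the 6 M2 libraries alone called 2 members higher and 7 lower. Fcna, a ficolin of innate defence, had 1707, 1364 and 1079 CPM with bFKB1 and 909, 608.5 and 787 CPM in Warm (log2 fold change 0.83, adjusted p = 0.0281, edgeR), a call lost without bFKB1 libraries 1 or 2 and Warm libraries 2 or 3. Mgl2, a lectin of dermal and adipose macrophages, had 366, 524 and 516 CPM with bFKB1 and 971, 1053 and 1096 CPM in Warm (log2 fold change -1.16, SE 0.21, adjusted p = 0.00892, edgeR), and the other fallen member was Ccl8. Folr2 (1792 and 1799 CPM), Gas6 (1793 and 1808 CPM) and Cd163 (1884 and 2373 CPM, adjusted p = 0.224, edgeR) were not called. Cd209e, one of a cluster of similar lectin genes, fell to 6.38, 6.76 and 5.17 CPM with bFKB1, against 16.0, 14.1 and 13.4 CPM in Warm, while its neighbours Cd209b, Cd209f and Cd209g were not called. Because the cluster's members are alike, these values are uncertain. The pan-macrophage genes Cd68 and Lyz2 rose by 0.28 and 0.35. The Cd68 call held only when Warm library 3 was left out. Lyz2 lost its call whichever library was left out, and in the fit of all 18 macrophage libraries. Csf1r (5629 and 5513 CPM) and Emr1, the F4/80 antigen (2537 and 2161 CPM, adjusted p = 0.0813, edgeR), were not called.

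Antigen presentation genes lay lower without passing the test. None of 13 tested genes of MHC class II presentation was called. Lower in every bFKB1 library were 9 of them, beside 16.1% of all tested genes, and the median log2 fold change was -0.61. Cd74, the invariant chain, had 5587, 10490 and 10110 CPM with bFKB1 and 11940, 13960 and 14070 CPM in Warm, where bFKB1 library 1 was far below the other libraries (log2 fold change -0.62, SE 0.22, adjusted p = 0.115, edgeR). With DESeq2, 6 members of the list were called lower. Dendritic cell genes, 14 tested, had a median log2 fold change of -0.89, and 7 were lower in every bFKB1 library, beside the same 16.1%. Their summed level was 1003 to 1054 CPM in the bFKB1 M2 libraries and 887.5 to 1008 CPM in the Warm M2 libraries. Cd24a was the one called (0.423, 0.684 and 0.838 CPM with bFKB1, and 2.40, 1.55 and 2.04 CPM in Warm), and its call was lost whichever library was left out. Flt3, the growth factor receptor of dendritic cells, had means of 1.38 CPM with bFKB1 and 3.69 CPM in Warm and was not called. The part of dendritic cells in the lower antigen presentation genes was not tested.

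Proliferation genes were lower. Of 33 tested cell cycle genes 12 fell and none rose (median -0.34). Top2a, a topoisomerase of dividing cells, had 156.5, 116.9 and 140.5 CPM with bFKB1 and 182.9, 210.1 and 194 CPM in Warm (log2 fold change -0.52, SE 0.11, adjusted p = 0.0186, edgeR). Kif11, a motor of the mitotic spindle, had 34.4, 25.5 and 29.0 CPM with bFKB1 and 45.1, 49.8 and 46.7 CPM in Warm, and Kif23, which acts at cell separation, had 59.2, 63.2 and 64.7 CPM with bFKB1 and 98.3, 84.5 and 99.4 CPM in Warm. The calls of Kif11 and Kif23 held without any 1 library. The other fallen members were Aurkb, Bub1b, Ccna2, Cdc20, Cenpe, Cenpf, Mki67, Nusap1 and Ube2c, and 21 members were not called, among them Plk1, Cdk1, Mcm2 and Pcna. The count was 2 without bFKB1 library 2, Warm library 2 or Warm library 3, 3 without bFKB1 library 3 and 7 without Warm library 1.

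Among further genes that fell most, several were low in level. Mst1r, the receptor of macrophage-stimulating protein, had 1.74, 2.05 and 2.33 CPM with bFKB1 and 9.83, 7.72 and 4.13 CPM in Warm, and its call held without any 1 library (log2 fold change -1.84, adjusted p = 0.00334, edgeR). Ptx3, a secreted pattern recognition protein, had 2.11, 2.18 and 2.56 CPM with bFKB1 and 9.63, 12.3 and 7.47 CPM in Warm, and its call was lost whichever library was left out. Ptx3 and Mst1r had means of 414.8 and 84.7 CPM in Warm progenitors, and Glipr2, another fallen gene, 43.5 CPM. Mucl1, a mucin-like gene with close relatives, fell by 2.06 on the log2 scale, a call lost without bFKB1 library 2 and without any 1 Warm library. Nup210, a nuclear pore protein, and Rasgrp1, an activator of RAS, fell by 1.27 and 1.36 on the log2 scale. Nup210 lost its call without bFKB1 libraries 1 or 2 and Warm libraries 1 or 2, and Rasgrp1 kept it only without bFKB1 library 1. Of the 383 fallen genes, 24 (6.27%) were at least 5-fold higher in Warm progenitors than in Warm M2 cells, of the 669 risen genes 35 (5.23%), and of all tested genes 10.3%. The fit behind these calls also held the M1 libraries, whose progenitor content was uneven. The summed progenitor level there was 3608 to 12930 CPM in Warm M1 and 3916 to 11410 CPM in bFKB1 M1. Such spread makes progenitor genes hard to call, so these shares cannot measure the part of progenitor RNA, which was not tested.

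Markers of further cell types were low but moved as well. The summed level of 12 endothelial genes was 299.6 to 363 CPM in the bFKB1 M2 libraries and 241.8 to 273.7 CPM in the Warm M2 libraries. None of the 12 was called, and 8 were higher in every bFKB1 library, beside 19.7% of all tested genes. A fit of the 6 M2 libraries alone called 8 of the 12 higher. Beside 5.25% of all tested genes, 1 of 8 tested genes of T and NK cells rose, Il7r. This receptor chain for interleukin 7 had 32.1, 33.6 and 37.1 CPM with bFKB1 and 19.95, 19.8 and 18.4 CPM in Warm (log2 fold change 0.81, adjusted p = 0.000158, edgeR). The summed level of the T and NK cell genes was 48.4 to 59.0 CPM in the bFKB1 M2 libraries and 41.4 to 49.7 CPM in the Warm M2 libraries. Il7r made up most of that sum, so it does not show a rise of the list. The median log2 fold change of the 8 tested members was -0.40. The mast cell protease genes Cpa3 (4.41, 2.31 and 0.745 CPM with bFKB1, and 0.0489, 0.466 and 0.113 CPM in Warm) and Cma1 (3.33, 1.88 and 0.652 CPM, and 0.0978, 0.362 and 0.113 CPM) were called higher, and both calls held only without bFKB1 library 3. Kit, another mast cell gene, was not called (1.27 and 1.14 CPM). Of 11 tested adipocyte genes 3 fell, Lep, Retn and Cidec, beside 3.01% of all tested genes. The adipocyte count was 1 without bFKB1 libraries 1 or 3 or Warm libraries 1 or 3. Adipoq had 2.70 CPM with bFKB1 and 3.49 CPM in Warm. The part of these cells in the results above was not tested.

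The same antibody was also compared with Warm in M1 macrophages. The libraries are others than those of M2, but the 2 comparisons are not independent. Both cross the same 2 tables and were fitted together. Same-numbered M1 and M2 libraries of one treatment also deviated together (r of 0.12 to 0.43 over genes). Likeness between the M2 and M1 changes may therefore be partly built in. There 2755 of 12734 genes were called (21.6%), 1552 higher and 1203 lower. The difference between the M2 and the M1 response was tested in the same fit, where any effect of the table that is common to both populations cancels. No gene passed (0%), with a smallest adjusted p of 0.0798 by edgeR and 976 genes at an unadjusted p under 0.05. DESeq2 called 76 genes for this difference and limma-voom 0, and edgeR called 46 without Warm M1 library 2 and 1 without bFKB1 M2 library 2. A p that misses the threshold does not show that the populations responded alike. The smallest adjusted p was shared by 3 genes, Epb4.1l1, Il4i1 and Cd209e. The log2 fold change of Cd209e was -1.26 in M2 and -3.24 in M1, with a difference of 1.98 (unadjusted p = 1.88e-05, edgeR), and that of Il4i1, an amino acid oxidase, was 0.19 in M2 and -1.07 in M1.

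For most genes named above the M1 change had the same sign. Gpnmb had a log2 fold change of 1.87 in M2 and 1.25 in M1 (unadjusted p of the difference 0.0344), Ctsk 1.78 and 1.36 (0.109), Cpe 2.75 and 2.68 (0.877) and Slc40a1 1.63 and 2.39 (0.0498). Spp1 had 2.02 in M2 and 1.00 in M1, with an unadjusted p of 0.00145 and an adjusted p of 0.329 for the difference. In M1 cells Gpnmb had means of 3899 CPM with bFKB1 and 1647 CPM in Warm. In the unfolded protein response, Hspa5 had -0.77 in M2 and -0.86 in M1. Among the fallen genes, Ptx3 had -2.11 in M2 and -0.28 in M1 (0.0254), Hp -1.71 and -0.67 (0.0312), Fn1 -1.33 and -0.51 (0.0735), and Rnase2a -3.26 and -2.37 (0.0870). By list, the lipid-associated genes had medians of 0.83 in M2 and 0.87 in M1, the antioxidant genes 0.52 and 0.45, and the unfolded protein response -0.42 and -0.49. Adipose progenitor genes had a median of -0.81 in M2 and 0.02 in M1, and endothelial genes 0.72 and -0.97; these differences between the populations were not tested.

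**Figure D5:**
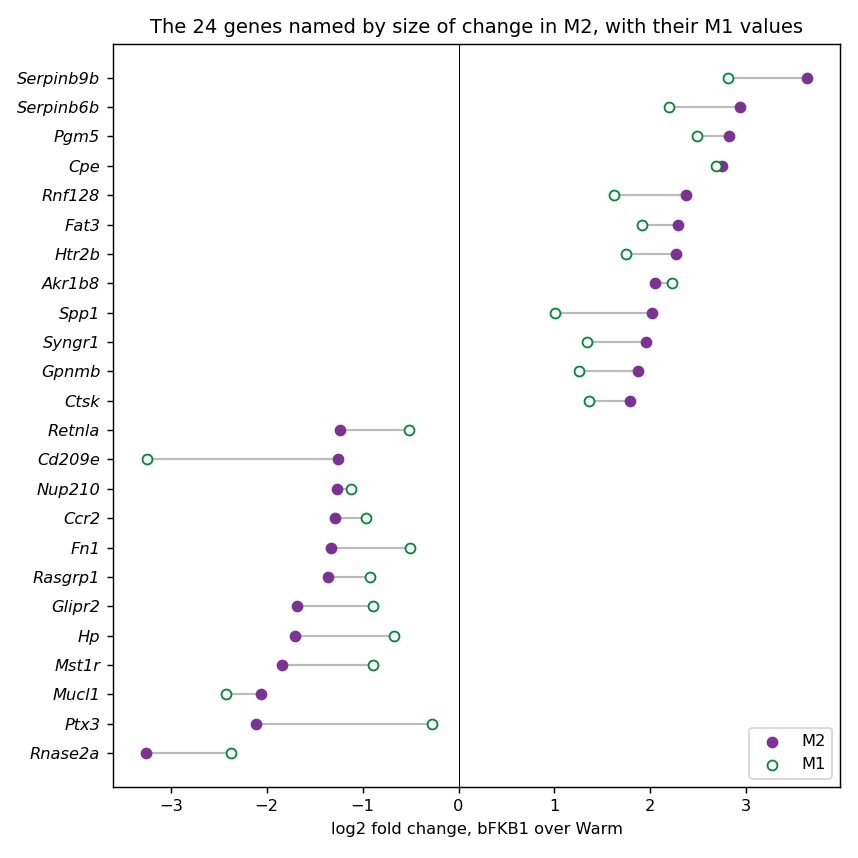
Log2 fold change of bFKB1 over Warm (x axis) in M2 (filled) and in M1 (open) for the 12 risen and 12 fallen genes named by size in M2. All 24 pairs lie on the same side of 0, and Cd209e, Ptx3 and Hp are the pairs farthest apart.

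The M2 cells of mice exposed to cold were set beside them. These mice were moved to 18 °C for 7 days and then to 4 °C, and their fat was taken at day 14. Cold and bFKB1 share the Warm M2 controls, so that likeness between the 2 contrasts is partly built in, and only the direct test of bFKB1 against Cold is used as a comparison. Cold against Warm itself called 1312 of 12981 genes (10.1%). The direct test called 576 of 13086 genes (4.4%), 436 higher and 140 lower with bFKB1, and again crosses the 2 tables. The count was 27 without bFKB1 library 3, 29 without Cold library 2, 31 without Cold library 3, 141 without bFKB1 library 2 and 373 without bFKB1 library 1. Under upper quartile scaling it was 386, of which 212 were higher with bFKB1.

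For this comparison the other settings were run only for the genes named by size, the fixed genes, Slc40a1, Il7r, Fcna and Mmp9. Of these, 4 differed from Cold under all settings tried. Further named genes were called against Cold without that check, such as Mmp12 (log2 fold change 1.54, adjusted p = 0.00904, edgeR) and Ccl4 (-1.05, adjusted p = 0.00712, edgeR). Gpnmb had a mean of 1091 CPM in bFKB1 M2 and 422 ± 125 CPM in Cold M2 (SD, n = 3), a log2 fold change of 1.43 (adjusted p = 0.00344, edgeR), and against Warm it was 1.87 for bFKB1 and 0.44 for Cold. Itgax had means of 135.4 CPM in bFKB1 M2 and 40.1 CPM in Cold M2 (log2 fold change 1.82, adjusted p = 0.00322, edgeR). Against Warm, Itgax was called lower in Cold (-1.46, adjusted p = 0.00163, edgeR) and was not called with bFKB1 (0.35, adjusted p = 0.41, edgeR). Fat3 had means of 23.8 CPM in bFKB1 M2 and 7.98 CPM in Cold M2 (1.63, adjusted p = 0.00344, edgeR). Il7r had means of 34.3 CPM in bFKB1 M2 and 16.0 CPM in Cold M2 (1.13, adjusted p = 0.00344, edgeR). Other genes were lower with bFKB1 than with Cold. Slc40a1 had means of 150.8 CPM in bFKB1 M2 and 289.2 CPM in Cold M2 (log2 fold change -0.88, adjusted p = 0.0301, edgeR), Fcna 1383 and 2684 CPM (-0.90, adjusted p = 0.0224) and Mmp9, a gelatinase, 166.1 and 355.6 CPM (-1.04, adjusted p = 0.0231). These 3 calls were lost without bFKB1 libraries 2 or 3 and without Cold libraries 2 or 3, and that of Mmp9 also without bFKB1 library 1. Rnase2a, Retnla, Cd36 and Hspa5 did not differ from Cold beyond the test's threshold, with log2 fold changes of -0.09, 0.24, -0.07 and -0.16.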

How the data were processed

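RNA of sorted cells was sequenced and the authors deposited read counts per gene in 2 tables, one with the Warm and Cold libraries and one with the bFKB1 libraries. Per the submitters' processing notes, base calls came from CASAVA 1.8 and reads were aligned with GSNAP to GRCm38, and SAMtools was used for the Warm and Cold table. The counting program and the gene annotation are not stated there. Rows whose gene names had turned into dates, 27 per table, were left out. They held 0.15% to 0.16% of the counts in the bFKB1 and Warm M2 libraries.

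Counts were fitted with edgeR 4.0.16 in R 4.3.3 (filterByExpr, TMM scaling, quasi-likelihood test, Benjamini-Hochberg adjustment over all tested genes, threshold 0.05). The fit held 12 libraries, M1 and M2 of bFKB1 and Warm with 3 each, and 1 mean per group. The standard error is the absolute log2 fold change over the square root of F. CPM are counts over the library's total without TMM factors. The alternatives used limma 3.58.1 and DESeq2 1.42.0, other scalings, other filters, a replicate block and left-out libraries. The fit was tested on data with known changes before use. Tables and plots were made with Python 3.11.15 and matplotlib 3.10.9.

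Genes were named by rule: the 12 risen and 12 fallen genes of largest change among called genes that moved by 1 or more on the log2 scale, reached an average of 5 CPM in either group and had no overlap between the groups (predicted genes left out), up to 4 called members per list with the smallest p, over 43 lists, and 7 fixed genes. Other genes named, such as further list members and those shown for a promoter match, were chosen after their values were seen. The comparison, its members and the lists were chosen with earlier results of these data known. Of the gene symbols, 20105 were found in GENCODE M21, 840 more by a synonym and 118 by neither.

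The number in the title was used as the replicate number of bFKB1 libraries, where another label gave a different one. Same-numbered bFKB1 M2 and Warm M2 libraries did not deviate together (r of -0.14 to -0.10 over genes), so the numbers do not pair the treatments. Same-numbered M1 and M2 libraries of one treatment did (r of 0.12 to 0.43). The exception was bFKB1 M2 library 2, whose r of 0.116 was under the 0.139 it reached with another number. With same-numbered M1 and M2 libraries as a block, a fit chosen after seeing the data, the difference between M2 and M1 again gave 0 called genes by edgeR (smallest adjusted p 0.123, 1312 at an unadjusted p under 0.05).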

Additional observations from a re-analysis of the deposited data

How the results depend on the processing

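The count of genes that differed between bFKB1 and Warm M2 cells was 394 to 553 when 1 library was left out, against 1052 with all, and fewer samples entered those fits. It was 1854, with 921 higher, when the 6 M2 libraries were fitted alone, and 895 to 1389 under the other scalings, filters, tools and fits. With the replicate number as a block it was 875. The block changed the call of some named genes, among them Cd68, but since the numbers do not pair bFKB1 with Warm this is no measure of effect size. The difference between M2 and M1 gave 0 to 46 genes when 1 library was left out, 76 with DESeq2 and 0 under the other settings run, the block included. For bFKB1 against Cold the count was 27 to 787 when 1 library was left out, 368 without a filter on low counts, 403 with the block and 386 to 814 under the other settings. Of 107 called genes named for bFKB1 against Warm, 59 kept the call without any 1 library and 82 under all other settings run. None of them reversed.

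Among the genes for which other settings were run against Cold, near-zero values changed sign in 2, and neither was called. Cd68 was -0.006052 under upper quartile scaling and -0.0007438 to 0.05822 with 1 library left out. Rnase2a was -0.2214 to 0.02952 with 1 library left out, including 0.02485 without Cold library 2. The cause was not tested. Depth limits genes of few counts such as Klb, which could not be tested. All values against Warm or Cold cross the 2 tables.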

Other observations

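In several lists a few genes were called, where 5.25% of all tested genes were called higher and 3.01% lower. Of 30 interferon response genes, 4 were called higher in bFKB1 M2 than in Warm M2 cells (Bst2, Ifit2, Ifit3 and Oas3), and 0 or 1 without any 1 library. Bst2, a protein that tethers virus particles at the cell surface, had 114.3, 103.5 and 102.5 CPM with bFKB1 and 84.7, 87.6 and 86.0 CPM in Warm. Of 13 genes of the sterol receptor LXR and cholesterol efflux, 3 rose, among them Nr1h3, which codes for LXR-alpha and had 44.0, 46.8 and 43.8 CPM with bFKB1 and 28.5, 32.2 and 28.5 CPM in Warm. The Nr1h3 call was lost whichever library was left out. The count of the list was 1 without bFKB1 library 1 or Warm library 1. The efflux pumps Abca1 and Abcg1 were not called.

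Of 16 lipogenesis genes, 2 fell, and 2 fell without any 1 library. Fasn, fatty acid synthase, had 45.6, 38.3 and 41.4 CPM with bFKB1 and 53.4, 62.0 and 52.8 CPM in Warm (log2 fold change -0.44, SE 0.07, adjusted p = 0.00501, edgeR). Dgat2, which makes triglyceride, had 3.19, 3.98 and 3.31 CPM with bFKB1 and 9.73, 6.16 and 7.53 CPM in Warm (log2 fold change -1.17, SE 0.21, adjusted p = 0.00883, edgeR). Tlr13, a receptor for bacterial ribosomal RNA, was the one toll-like receptor that rose, with 252.6, 229.2 and 229.1 CPM with bFKB1 and 125.2, 168.7 and 132.9 CPM in Warm.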
